A study of Mus musculus with 18 samples.

Results

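The Skint genes are a mouse family whose members encode cell-surface proteins of the butyrophilin-like class, with immunoglobulin-like outer domains and several membrane-spanning segments. They are expressed mainly by keratinocytes and thymic epithelium. The founding member, Skint1, is required for the thymic selection of the gamma-delta T cells that populate the mouse epidermis as dendritic epidermal T cells, and the roles of most other members are not known. The genes described are Skint3, Skint4, Skint5, Skint6, Skint7, Skint8, Skint9 and Skint10. These 8 symbols of the 23951 in the expression table were selected on their FPKM values (fragments scaled to transcript length and library size) in these same libraries, with the zeros of mouse 817 already seen. The values that chose them are therefore descriptions, and the counts below are not independent evidence about the family. Skint1, Skint2 and Skint11 are also in the table and serve here as relatives. All 8 members passed the filter on low values, Skint7 and Skint8 mainly through their b-KC libraries.

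RNA was sequenced from sorted cells of mouse ear skin. HF-SC are bulge hair follicle stem cells (CD45- CD49f high CD34+) and b-KC are basal keratinocytes (CD45- CD49f high CD34-). The mutant animals were DKO*-mT/mG mice, in which tamoxifen activates a Cre recombinase driven by the K5 promoter, deletes the floxed JunB and c-Jun alleles and switches the cell from Tomato to GFP. GFP cells are thus the recombined, mutant cells, and Tom cells are unrecombined cells of the same psoriasis-like skin. Mice were 8 weeks old, received 4 injections of 2 mg tamoxifen, and the mutants were taken at day 7. Control mice (Co) carried the same K5-driven Cre and mT/mG reporter, were wild-type or heterozygous for the floxed JunB and c-Jun alleles, and received the same tamoxifen. The study places them at the same mid-term stage as the mutants. Each of the 6 groups (Co, GFP and Tom in either cell type) has 3 libraries. The 3 mutant mice, numbered 814, 815 and 817, each gave 4 libraries, and the 3 control mice, 810, 825 and 828, each gave 2. The deletion is mosaic, and the GFP label reports Cre activity, not loss of both genes in every cell.

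Implied depth ran from 16550000 to 26290000 reads per library. Jun lay at 835 to 1086 FPKM in HF-SC Co and 876 to 1000 in b-KC Co, at 29.6 to 88.4 in the GFP groups, and at 163 to 614 in the Tom groups. Junb lay at 436 to 772 FPKM in the Co groups, 37.2 to 77.5 in the GFP groups and 208 to 402 in the Tom groups. Cd34 marked the HF-SC libraries (161 to 889 FPKM) against b-KC (0.341 to 2.53). Krt14 and Krt15, keratin genes that basal and bulge cells use heavily, were listed at 0 in 3 and in 1 of 18 libraries, so a listed 0 in this table is not in itself evidence that a gene was silent.

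All 11 Skint genes lie in 1 cluster of 2.33 Mb on chromosome 4 (chr4:111591997-113917633, NCBIM37, the mm9 assembly of the deposited values), with no other gene of the table between them. Their order along it is Skint8, Skint7, Skint1, Skint4, Skint3, Skint9, Skint2, Skint10, Skint6, Skint5 and Skint11. Jun, 1 of the floxed genes, lies on the same chromosome, 16.9 Mb from the cluster. The paper describes the DKO* line as of mixed background. Whether control and mutant mice, or mouse 817 and the others, carried the same Skint alleles was not tested. Skint5 and Skint6 are the long members, with 59 and 49 exons in their longest annotated transcripts. Their promoters, taken from RefSeq on GRCm38.p6 as 300 bases around the gene start, are shown because they are near copies: 269 of 300 positions (89.7%) are the same, and capitals mark the 31 that differ. Both genes are on the minus strand and the sequences are written 5′ to 3′ along it, Skint5 from chr4:113999454-113999753 and Skint6 from chr4:113286924-113287223.
Skint5: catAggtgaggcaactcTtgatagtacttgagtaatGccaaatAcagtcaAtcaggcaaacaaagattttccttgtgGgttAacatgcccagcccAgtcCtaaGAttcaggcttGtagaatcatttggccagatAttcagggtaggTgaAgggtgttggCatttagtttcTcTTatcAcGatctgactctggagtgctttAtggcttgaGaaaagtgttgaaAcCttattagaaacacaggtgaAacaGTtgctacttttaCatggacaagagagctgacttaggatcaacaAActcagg
Skint6: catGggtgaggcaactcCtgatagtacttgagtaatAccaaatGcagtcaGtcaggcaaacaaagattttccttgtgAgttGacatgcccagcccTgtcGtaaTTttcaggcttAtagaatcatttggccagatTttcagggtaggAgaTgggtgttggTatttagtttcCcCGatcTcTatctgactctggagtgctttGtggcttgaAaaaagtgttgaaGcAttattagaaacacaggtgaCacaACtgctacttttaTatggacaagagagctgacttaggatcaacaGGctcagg

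The corresponding windows of Skint3 (plus strand, chr4:112231995-112232294) and Skint9 (minus strand, chr4:112433936-112434235) are shown because these genes are the ones listed at 0 in mouse 817. Capitals mark TATAAA read on either strand, which occurs at 2 places in Skint9 and nowhere in Skint3. These are reference sequences, and the promoters of mouse 817 were not read.
Skint3: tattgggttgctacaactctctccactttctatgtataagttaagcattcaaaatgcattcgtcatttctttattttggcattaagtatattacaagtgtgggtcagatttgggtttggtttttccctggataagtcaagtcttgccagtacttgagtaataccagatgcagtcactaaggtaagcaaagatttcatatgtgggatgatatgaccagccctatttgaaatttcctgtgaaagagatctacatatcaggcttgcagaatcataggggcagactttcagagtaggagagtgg
Skint9: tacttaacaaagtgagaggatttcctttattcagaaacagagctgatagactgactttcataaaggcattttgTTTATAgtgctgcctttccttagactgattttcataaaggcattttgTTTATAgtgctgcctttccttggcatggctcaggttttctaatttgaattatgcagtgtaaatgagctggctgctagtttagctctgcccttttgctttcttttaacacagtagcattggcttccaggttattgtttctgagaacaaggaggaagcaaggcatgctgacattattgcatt

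AP-1, the dimer that Jun proteins form, binds TGANTCA. These letters, searched on both strands, occur in 0 of the 9 member promoters (Skint4 has 2) and in 7.81% of the 32851 promoters of the RefSeq table. The cyclic AMP response element TGACGTCA occurs in 0 of 9 against 1.79%, and TATAAA in 5 of 9 against 13.6%. Each TATAAA match in a member reads on the strand opposite to the gene. From the gene start the matches begin at -31 in Skint7, -209 in Skint8, -177 and -130 in Skint9, -169 and -163 in Skint4, and 7 in Skint6. Of the relatives, Skint11 holds TGACTCA once.

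In control skin every HF-SC library lay below every b-KC library for 7 of the 8 members (37.4% of the 12751 genes tested), and Skint4 was the other way round. The summed level of the 8 members was 93.5 to 96.9 FPKM in b-KC Co and 32.4 to 45.3 in HF-SC Co. By length-scaled level the order in b-KC Co was Skint9, Skint10, Skint5, Skint4, Skint6, Skint3, Skint7 and Skint8, and in HF-SC Co Skint4 came first. Among neighbours in that b-KC Co order, Skint5 and Skint4 overlapped between libraries, as did Skint6 and Skint3, and Skint7 and Skint8.

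**Figure D1:**
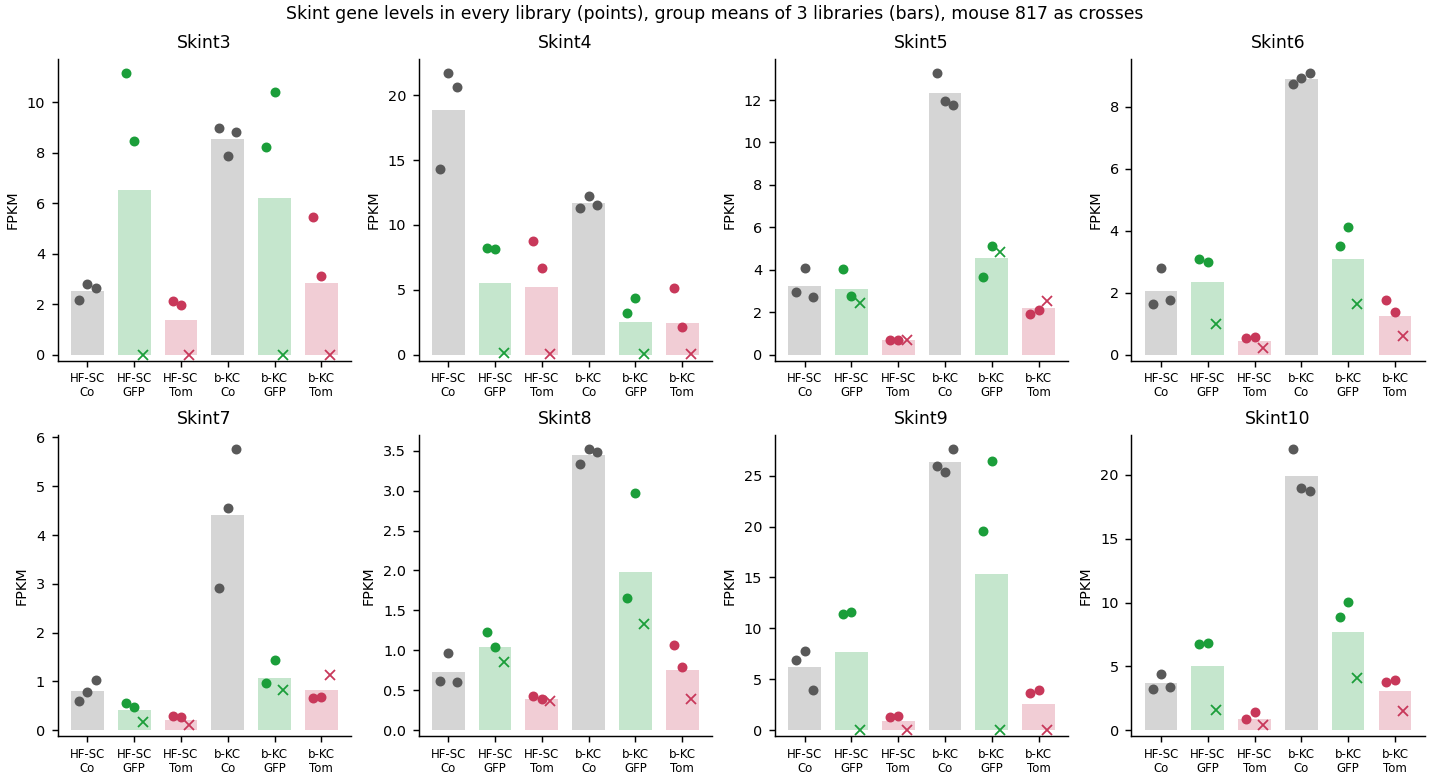
FPKM of the 8 Skint genes in each of the 18 libraries, by group (points; crosses are mouse 817; bars are means of 3 libraries, listed zeros included). By group mean b-KC Co stands highest for each member but Skint4, for which HF-SC Co does. For Skint3 these means are 8.56 in b-KC Co and 6.54 in HF-SC GFP, or 9.81 in HF-SC GFP without mouse 817. Its highest library, at 11.2, is HF-SC GFP of mouse 814. The crosses lie at 0 for Skint3 and Skint9.

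Skint9 was at 25.9, 25.4 and 27.6 FPKM in b-KC Co and at 6.90, 7.76 and 3.92 in HF-SC Co (mice 810, 825 and 828). Skint10 was at 22.1, 18.95 and 18.7 in b-KC Co and at 3.24, 4.40 and 3.39 in HF-SC Co, and Skint5 was at 13.3, 12.0 and 11.8 against 2.94, 4.10 and 2.72. Skint4 was at 11.3, 12.3 and 11.6 FPKM in b-KC Co and at 14.3, 21.7 and 20.6 in HF-SC Co. The groups did not overlap for any of these genes. By limma on log2(FPKM + 1) over all 18 libraries, with Benjamini-Hochberg adjustment over 12751 genes, 5 of 8 members were lower in HF-SC Co at adjusted p under 0.01 (19.3% of all genes were), and 1, Skint10, was called at that p with a log2 change of 2 or more (2.82% of all genes). The log2 difference was -2.16 ± 0.39 (SE) for Skint10 (adjusted p = 0.000295) and -1.66 ± 0.16 for Skint5 (adjusted p = 6.07e-07). The fit shares its spread over all groups, and the mutant mouse 817 widens it for Skint3, Skint4 and Skint9. Without that mouse the estimates for these control groups are the same and 7 of 8 passed (27.7% of all genes), Skint9 at -1.97 ± 0.18 (adjusted p = 4.68e-07) and Skint3 at -1.44 ± 0.16 (adjusted p = 4.51e-06), while Skint4 was at 0.62 ± 0.22 (adjusted p = 0.0220). Suprabasal markers (Krt1, Krt10, Krtdap, Sbsn, Lor) differed in the same direction, 4 of 5 passing with all libraries and 5 without mouse 817, with summed levels of 762 to 970 FPKM in HF-SC Co and 6922 to 8606 in b-KC Co, while endothelial markers were 7 of 8 higher in HF-SC Co (45.1 to 72.6 FPKM summed against 1.32 to 2.68). T cell markers were 1 of 2 tested lower in HF-SC Co, at 1.31 to 1.84 FPKM summed against 12.6 to 17.2. Of that list, Cd3g was at 0 in every b-KC Co library, and Cd3e was low in every library, as given below. The sum is therefore not a measure of T cells. What part other cells had in the Skint difference was not tested.

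Mouse 817 stood apart from the other mutants in this gene family. Skint3 was listed at 0 in its 4 libraries, and so was Skint9. In the other libraries Skint3 was never below 1.95 FPKM and Skint9 never below 1.32. No further gene of the table was listed at 0 in all libraries of 817 while reaching 1 FPKM in all other libraries of a cell type, and no gene did so for any of the 5 other mice. Skint4, which lies beside Skint3 on the chromosome, was at 0.116 (GFP) and 0.0679 FPKM (Tom) in the HF-SC libraries of 817 and at 0.0118 (GFP) and 0.0379 FPKM (Tom) in its b-KC libraries, against 2.12 to 8.77 FPKM in mice 814 and 815. The b-KC values of 817 stand for about 1 (GFP) and 3 (Tom) reads.

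The level in 817 varied along the cluster. As a percentage of the mean of 814 and 815 in the same cell population, with the median over the 4 populations, 817 was at 66.2% for Skint8, 52.5% for Skint7, 16.0% for Skint1, 0.961% for Skint4, 35.1% for Skint2, 36.1% for Skint10, 38.2% for Skint6, 103.9% for Skint5 and 5.88% for Skint11. Skint5, the near copy of Skint6 by promoter, stayed at 70.9% to 125% while Skint6 was at 32.3% to 42.6%. Skint7 ran from 34.2% to 170%, with 817 above both 814 and 815 in b-KC Tom. Of the flanking genes, Slc5a9 was at 46.8%, Spata6 at 86.6% and Bend5 at 41.8% on one side, and Cmpk1 at 71.4% and Stil at 122.5% on the other, by the same measure. There is 1 such mouse, and the adjusted-p counts of members and markers below, other than those with mouse as a block, are given with and without it. A marker count given once was the same on both sets of libraries, and summed marker levels and correlations cover all libraries.

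**Figure D2:**
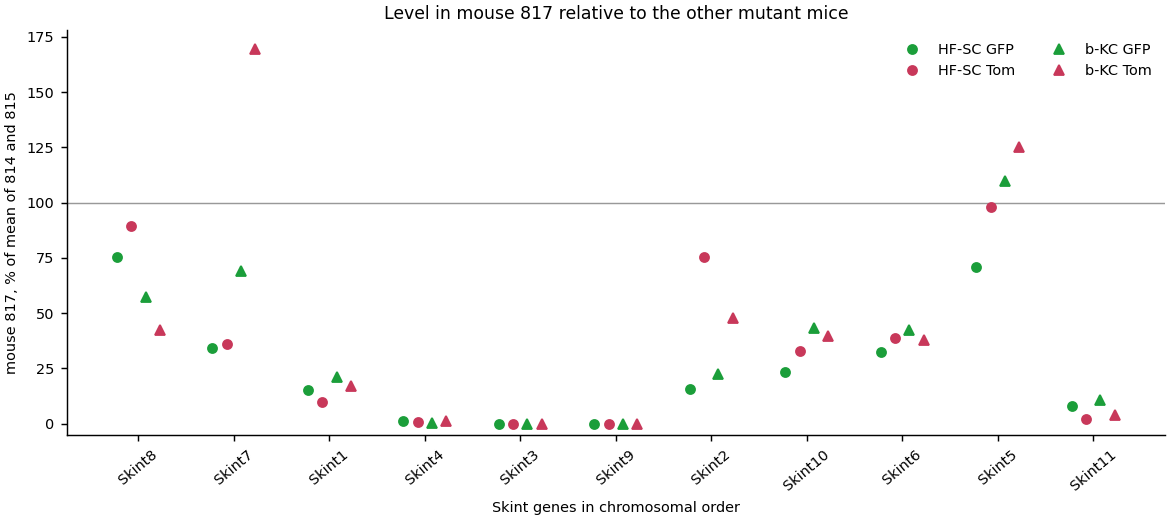
Level of each Skint gene in mouse 817 as a percentage of the mean of mice 814 and 815, for 4 sorted populations (circles HF-SC, triangles b-KC, green GFP, red Tom), in chromosomal order. Skint4, Skint3 and Skint9 sit at 0% to 1.41%, Skint5 at 70.9% to 125%.

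In mutant basal keratinocytes 3 of the 8 Skint genes were lower than in controls, and 5 were without mouse 817, Skint3 and Skint9 not among them. Skint5 was at 3.68, 5.10 and 4.83 FPKM in b-KC GFP (mice 814, 815 and 817) against 11.8 to 13.3 in b-KC Co, Skint6 was at 3.52, 4.11 and 1.62 against 8.72 to 9.08, and Skint7 was at 0.961, 1.44 and 0.827 against 2.92 to 5.77. The GFP libraries lay below every Co library for 6 of 8 members (31.0% of all genes). Skint9 was at 19.6 and 26.5 FPKM in 814 and 815 against 25.4 to 27.6 in b-KC Co, so that 814 lay below every control library and 815 within their range, and Skint3 was at 8.24 and 10.4. At adjusted p under 0.01 by limma 3 of 8 were lower (12.0% of all genes): Skint5 (-1.28 ± 0.16, adjusted p = 4.32e-05), Skint6 (-1.34 ± 0.29, adjusted p = 0.00248) and Skint7 (-1.36 ± 0.19, adjusted p = 0.000101). None was called at a log2 change of 2 or more (0.588% of all genes). Skint10 passed as well with mouse as a replicate block (-1.35, adjusted p = 0.00362), as 13.4% of all genes did. The median log2 difference of the 8 was -1.34, beside -0.03 over all genes tested.

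Without mouse 817, 5 of 8 were lower in b-KC GFP (22.6% of all genes), among them Skint4 (-1.42 ± 0.24, adjusted p = 0.000247) and Skint10 (adjusted p = 7.92e-05). Skint3 was at 0.11 ± 0.18 (adjusted p = 0.644) and Skint9 at -0.20 ± 0.20 (adjusted p = 0.409). Of the relatives Skint1, Skint2 and Skint11, 1 of 3 was higher on these libraries and 0 lower, and none passed with all libraries. In bulk samples fewer cells of a kind and less RNA per cell cannot be told apart. Langerhans cell markers were higher in the same libraries, all 3 that passed the filter of 5 listed, with summed levels of 371 to 676 FPKM against 6.15 to 11.9 in b-KC Co. The list is Cd207, Cd74, H2-Aa, H2-Ab1 and Itgax. Cd207, its defining gene, was at 0.113 to 0.615 FPKM in both groups. It is not among the 3 tested, here or in the comparisons below, so these counts do not identify Langerhans cells. Suprabasal markers (4892 to 6885 FPKM summed against 6922 to 8606) were 2 of 5 lower with all libraries and 3 of 5 without mouse 817. Basal keratinocyte markers (6305 to 10369 FPKM against 16068 to 17362) were 1 of 6 lower with all libraries and 5 of 6 without that mouse. Of all genes 12.0% and 22.6% were lower on the same sets of libraries. Bulge markers (530 to 1169 FPKM against 3100 to 3165) were 0 of 7 and 1 of 7 lower, and endothelial markers (1.48 to 6.48 FPKM against 1.32 to 2.68) were 0 of 8 and 1 of 8 higher. The bulge list holds Krt15, which basal cells also use, and Cd34 was low in every b-KC library. These bulge sums are therefore not a measure of bulge cells. The part of these cells in the Skint values was not tested.

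In non-mutant basal keratinocytes of the same skin the median difference from control was the largest of the 4 comparisons with control. Skint10 was at 3.77, 3.93 and 1.52 FPKM in b-KC Tom (mice 814, 815 and 817) against 18.7 to 22.1 in b-KC Co. Skint5 was at 1.94, 2.08 and 2.52 FPKM, Skint6 at 1.78, 1.37 and 0.594, and Skint9 at 3.64 and 3.95 in 814 and 815. Each of the 8 members was below every control library (34.0% of all genes were). By limma 5 of 8 were lower at adjusted p under 0.01 (15.3% of all genes) and 3 were called (1.51% of all genes): Skint10 (-2.42 ± 0.39, adjusted p = 0.000191), Skint6 (-2.18 ± 0.29, adjusted p = 3.78e-05) and Skint5 (-2.07 ± 0.16, adjusted p = 3.53e-07). The median of the 8 was -2.13, beside -0.02 over all genes tested.

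Skint7 (-1.54 ± 0.19) and Skint8 (-1.36 ± 0.18) also passed in b-KC Tom. Skint9, at -3.26 ± 1.09 with the listed zero included, did not (adjusted p = 0.0237). Its adjusted p was 0.00750 with mouse as a replicate block, and without mouse 817 it was at -2.51 ± 0.20 (adjusted p = 3.44e-07). Without that mouse all 8 members passed (22.1% of all genes), Skint3 with the smallest change (-0.89 ± 0.18, adjusted p = 0.00103), and Skint6 was at -1.95 and so no longer met the fold threshold. Of the 3 relatives 1 was lower on these libraries, and none passed with all libraries. The 3 Langerhans markers tested, which do not include Cd207, were again higher, at summed levels of 290 to 1353 FPKM. Suprabasal markers were 3 of 5 lower with and without mouse 817 (3873 to 6971 FPKM summed against 6922 to 8606). Bulge markers were 4 of 7 lower on either set of libraries, at 188 to 707 FPKM summed against 3100 to 3165, and endothelial markers were 0 of 8 higher with all libraries and 3 of 8 without mouse 817, at 4.64 to 10.6 FPKM against 1.32 to 2.68. The limit given for the bulge sums in b-KC GFP holds here too. Basal keratinocyte markers were 0 of 6 lower with all libraries and 3 of 6 without mouse 817, with summed levels of 5780 to 16073 FPKM against 16068 to 17362 and Krt14 listed at 0 in 2 of the Tom libraries. The part of these cells was not tested.

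**Figure D3:**
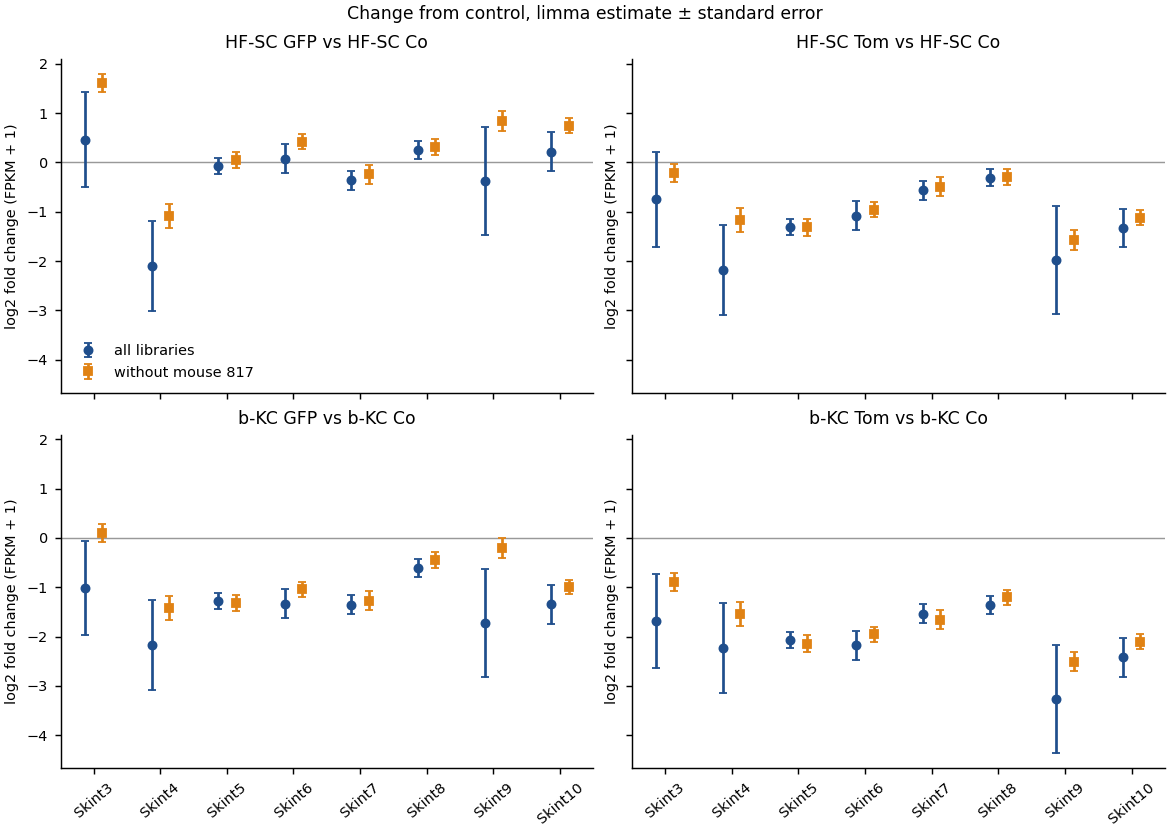
Log2 fold change from control of each Skint gene, by limma on log2(FPKM + 1), in 4 comparisons, with all libraries (circles) and without mouse 817 (squares); bars are standard errors. Without mouse 817 all 8 genes lie below 0 in b-KC Tom, while in HF-SC GFP Skint3, Skint9 and Skint10 lie above it and Skint4 below.

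In mutant bulge cells the members moved in different directions once mouse 817 was left out. With all libraries none of 8 passed at adjusted p under 0.01 in HF-SC GFP (25.4% of all genes did in either direction) and none was called (3.07% of all genes). At an unadjusted p under 0.05 the count was 1, Skint4 (47.5% of all genes). Skint3 was at 11.2 and 8.46 FPKM in mice 814 and 815 and listed at 0 in 817, against 2.18, 2.78 and 2.65 in HF-SC Co. Skint9 was at 11.4, 11.6 and a listed 0 against 6.90, 7.76 and 3.92, and Skint10 was at 6.74, 6.87 and 1.61 against 3.24 to 4.40. For these 3 genes 814 and 815 lay above every control library and 817 lay below.

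Without mouse 817, 4 of 8 passed in HF-SC GFP (37.5% of all genes in either direction). Skint3 was higher (1.60 ± 0.18, adjusted p = 8.39e-06), as were Skint9 (0.84 ± 0.20, adjusted p = 0.00320) and Skint10 (0.75 ± 0.15, adjusted p = 0.000888). Skint4 was lower (-1.09 ± 0.24, adjusted p = 0.00201), at 8.20 and 8.18 FPKM against 14.3 to 21.7. Skint5 did not pass (0.05 ± 0.17, adjusted p = 0.826). The relatives Skint1, Skint2 and Skint11 were also higher on these libraries, with log2 differences of 1.40, 1.73 and 1.55 (adjusted p = 1.94e-06, 4.31e-06 and 0.000158). These estimates rest on 2 mutant mice. With all libraries the relatives were at 0.62, 1.13 and 0.69, and none passed (adjusted p = 0.578, 0.0645 and 0.591). Langerhans markers summed to 192 to 238 FPKM in HF-SC GFP against 5.79 to 13.1 in HF-SC Co, 3 of 3 tested being higher. Suprabasal markers were 2 of 5 higher with and without mouse 817, at 1720 to 3457 FPKM summed against 762 to 970. Bulge markers were 4 of 7 lower with all libraries and 5 of 7 without that mouse, at 3501 to 5885 FPKM against 1190 to 12944 with a median of 12766, and endothelial markers were 4 of 8 and 7 of 8 lower, at 1.76 to 27.0 FPKM against 45.1 to 72.6. Basal keratinocyte markers were 0 of 6 and 1 of 6 lower, at 7299 to 8231 FPKM against 6930 to 7777. Krt15, on the bulge list, was listed at 0 in 1 of 18 libraries, so a low bulge sum need not mean fewer bulge cells. The part of these cells in the Skint values was not tested.

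In non-mutant bulge cells 2 of the 8 members were lower than in controls, and 5 were without mouse 817. Skint5 was at 0.682, 0.712 and 0.682 FPKM in HF-SC Tom against 2.94, 4.10 and 2.72 in HF-SC Co, and Skint6 was at 0.538, 0.567 and 0.213 against 1.65, 2.80 and 1.75. Each of the 8 members lay below every control library (24.6% of all genes). At adjusted p under 0.01 by limma 2 of 8 were lower (13.9% of all genes): Skint5 (-1.32 ± 0.16, adjusted p = 1.15e-05) and Skint6 (-1.08 ± 0.29, adjusted p = 0.00760). Skint10 passed too with mouse as a replicate block (-1.33, adjusted p = 0.00324), as 14.6% of all genes did. None was called (0.478% of all genes), and the fold changes of genes at such low levels are understated by the added 1. Without mouse 817, 5 of 8 passed (21.9% of all genes), including Skint9 (-1.57 ± 0.20, adjusted p = 1.85e-05), Skint4 (-1.17 ± 0.24, adjusted p = 0.00102) and Skint10 (-1.12 ± 0.15, adjusted p = 2.62e-05), while Skint3 was at -0.21 ± 0.18 (adjusted p = 0.336). Of the 3 relatives 1 passed without mouse 817, Skint1, which was higher (1.02 ± 0.14, adjusted p = 3.12e-05). With all libraries Skint1 was at 0.14 ± 0.82 (adjusted p = 0.905). Endothelial markers were 8 of 8 higher in these libraries, summing to 397 to 1305 FPKM against 45.1 to 72.6 in HF-SC Co. Langerhans markers were 3 of 3 tested higher, at 143 to 351 FPKM against 5.79 to 13.1. Bulge markers were 5 of 7 lower with all libraries and 6 of 7 without mouse 817, at 3225 to 6406 FPKM summed against 1190 to 12944 with a median of 12766. The limit given for the bulge sums in HF-SC GFP holds here too. Of 5 suprabasal markers 2 were higher on either set and 1 was lower with all libraries, 3 without that mouse. Basal keratinocyte markers were 0 of 6 and 3 of 6 lower, at 9010 to 10919 FPKM against 6930 to 7777. The part of these cells was not tested.

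GFP and Tom cells came from the same 3 mice, so they can be set against each other within an animal. In HF-SC, GFP exceeded Tom in each of the 3 mice for 5 of the 8 members (20.6% of all genes), and in both mice with a value for Skint3 and Skint9. For Skint5 the ratio was 5.92, 3.90 and 3.54 in 814, 815 and 817, for Skint6 5.75, 5.25 and 4.60, and for Skint10 7.71, 4.73 and 4.21. For Skint9 it was 8.64 and 8.38. Skint4 differed from these, at 0.935 and 1.22 in 814 and 815, and at 1.70 in 817, where it compares about 11 with 7 reads. With all libraries 1 of 8 was higher in GFP at adjusted p under 0.01 by limma (0.902% of all genes), Skint5 at 1.25 ± 0.16 (adjusted p = 6.21e-05), and none was called (0.0941% of all genes). With mouse as a replicate block 3 passed, Skint6 and Skint10 joining it (adjusted p = 0.00120 and 0.000862), as 2.38% of all genes did. When these groups were fitted alone with a fixed mouse term none passed, the adjusted p being 0.0180 for Skint5, 0.0305 for Skint6 and 0.0272 for Skint10. In that fit 1.18% of all genes were called, in either direction, and 0 of 8 members. Without mouse 817, 5 of 8 passed (6.03% of all genes): Skint9 at 2.41 ± 0.22 (adjusted p = 1.86e-06), Skint10 at 1.86 ± 0.16, Skint3 at 1.82 ± 0.20, Skint6 at 1.38 ± 0.17 and Skint5 at 1.36 ± 0.19. Skint4 was at 0.08 ± 0.27 (adjusted p = 0.853). Endothelial markers were 7 of 8 lower in GFP with all libraries and 8 of 8 without mouse 817, at 1.76 to 27.0 FPKM summed against 397 to 1305. Suprabasal markers were 0 of 5 and 2 of 5 higher, at 1720 to 3457 FPKM against 1654 to 2098, and T cell markers were 0 of 2 and 1 of 2 tested lower. The part of these cells was not tested.

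In b-KC the same ratio was 5.37 and 6.70 for Skint9, 2.36, 2.55 and 2.69 for Skint10, and 1.98, 3.01 and 2.73 for Skint6. For Skint7 it was 1.45, 2.12 and 0.727, with mouse 817 on the other side of 1. For Skint4 it was 0.624 and 2.06 in 814 and 815, and none is given for 817, where about 1 and 3 reads were listed. None of 8 passed at adjusted p under 0.01 with all libraries (0.361% of all genes) and none was called (0.0471% of all genes). At an unadjusted p under 0.05 the count was 4 (6.85% of all genes), and with mouse as a replicate block 2 passed (1.32% of all genes), Skint5 and Skint8 (adjusted p = 0.00601 and 0.00981). Neither passed when these groups were fitted alone with a fixed mouse term (adjusted p = 0.0359 and 0.0567). In that fit 0.0392% of all genes were called, in either direction, and 0 of 8 members. Without mouse 817, 4 of 8 passed (2.48% of all genes): Skint9 at 2.31 ± 0.22 (adjusted p = 3.70e-05), Skint10 at 1.11 ± 0.16, Skint3 at 1.00 ± 0.20 and Skint6 at 0.91 ± 0.17. On these libraries 1 of 7 bulge and 1 of 5 suprabasal markers were higher in GFP and 1 of 8 endothelial markers was lower, against none with all libraries, and their part was not tested.

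**Figure D4:**
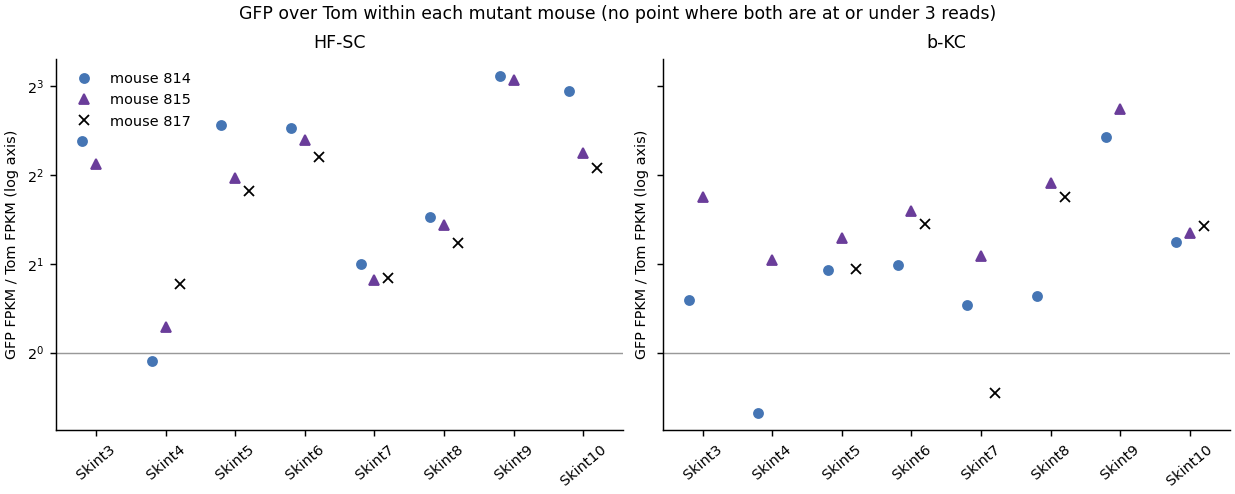
Ratio of GFP to Tom FPKM within each mutant mouse (circles 814, triangles 815, crosses 817) for the 8 Skint genes, on a log axis; no point is drawn where both libraries hold 3 reads or fewer. Points lie above 1 for Skint5, Skint6, Skint8 and Skint10 in every mouse of either cell type; in b-KC these are the 4 members with GFP above Tom in all 3 mice (20.1% of all genes).

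The change from control was then compared between cell types as an interaction. For the change to GFP, 1 of 8 was less negative in HF-SC than in b-KC at adjusted p under 0.01 (3.32% of all genes): Skint5, whose log2 change was -0.07 in HF-SC and -1.28 in b-KC, a difference of 1.21 ± 0.23 (adjusted p = 0.00296). With mouse as a replicate block 4 passed, Skint6, Skint7 and Skint10 joining it (adjusted p = 0.00341, 0.00684 and 0.00890), as 6.53% of all genes did. Without mouse 817, 4 passed (9.17% of all genes), Skint3, Skint5, Skint6 and Skint10. Leaving out 810, 814, 815 or 828 in turn left Skint5 with an adjusted p of 0.0245 to 0.0308. For the change to Tom none passed (5.93% of all genes), and the count at an unadjusted p under 0.05 was 4 (16.1% of all genes). With mouse as a replicate block 2 passed (9.22% of all genes), Skint7 and Skint8 (adjusted p = 0.00643 and 0.00219), and without mouse 817, 4 did (10.4% of all genes).

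Markers of other cells differed between the cell types by the same test. For the change to GFP, suprabasal markers were 1 of 5 higher in HF-SC with all libraries and 4 of 5 without mouse 817, basal keratinocyte markers 0 of 6 and 2 of 6 higher, bulge markers 0 of 7 and 3 of 7 lower, and endothelial markers 0 of 8 and 4 of 8 lower. For the change to Tom, endothelial markers were 4 of 8 and 8 of 8 higher, suprabasal markers 0 of 5 and 1 of 5 higher, T cell markers 0 of 2 and 1 of 2 tested higher, bulge markers 0 of 7 and 2 of 7 lower, and Langerhans markers 0 of 3 and 1 of 3 tested lower. Whether these cells had a part in the Skint interactions was not tested.

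Across the 18 libraries the members were related to each other to different degrees, with a median Pearson r of 0.784 over 28 pairs of log2(FPKM + 1) values. Skint6 and Skint10 were the closest pair (r = 0.985) and Skint4 and Skint8 the most distant (r = 0.289). Outside the family the genes whose pattern was most like the sum of the 8 were Atp6v1c2 (r = 0.922), a subunit of the vacuolar proton pump, Sptlc3 (r = 0.893), a subunit of serine palmitoyltransferase that starts sphingolipid synthesis, Sh3yl1 (r = 0.883), Muc15 (r = 0.875), a membrane mucin, and Pon3 (r = 0.865), a paraoxonase. These are descriptions over libraries that share mice and groups.

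Other genes known to act between keratinocytes and dendritic epidermal T cells moved in either direction. Of 12 listed ligands and cytokines, 6 passed the filter. Cxadr, which encodes the ligand of the costimulatory receptor JAML, was at 38.6 to 62.0 FPKM in the Co groups and 99.6 to 159.5 in the mutant-mouse groups, and rose in all 4 comparisons with control (log2 1.16 to 1.62, largest adjusted p = 1.13e-05), as it did without mouse 817 (1.21 to 1.67, largest adjusted p = 1.27e-05). Ccl27a, a keratinocyte chemokine that attracts skin-homing T cells, fell against control in b-KC Tom (-2.31 ± 0.35, adjusted p = 9.59e-05) and in both mutant-mouse populations of bulge cells (-2.12 ± 0.35 for GFP, adjusted p = 0.000203, and -2.07 ± 0.35 for Tom, adjusted p = 0.000196). Without mouse 817 it was at -2.45 in b-KC Tom, at -1.83 (GFP) and -1.74 (Tom) in bulge cells, which no longer met the fold threshold, and it passed in b-KC GFP too (-0.93 ± 0.27, adjusted p = 0.00886). H60c, a ligand of the receptor NKG2D, lay at 8.98 to 32.1 FPKM and passed in none of these, with or without that mouse. Without mouse 817 the list had 3 higher and 1 lower of 6 in HF-SC GFP, against 1 and 1 with all libraries, 1 higher and 2 lower in b-KC GFP, against 1 and 0, 3 and 1 in HF-SC Tom, against 1 and 1, and 1 and 3 in b-KC Tom, against 1 and 1. Of the 10 listed butyrophilin and butyrophilin-like genes 8 were in the table and 0 passed the filter, with summed levels of 0.403 FPKM or less. T cell markers, 11 genes of which 2 passed the filter, summed to 1.31 to 1.84 FPKM in HF-SC Co, 2.47 to 5.94 in HF-SC GFP and 4.80 to 8.69 in HF-SC Tom, where 1 of 2 was higher than in Co with all libraries and 2 of 2 without mouse 817. In b-KC they summed to 12.6 to 17.2 FPKM in Co, 11.1 to 24.0 in GFP, where 0 of 2 and 1 of 2 were higher, and 10.3 to 43.4 in Tom, where 0 of 2 were. Their part in the Skint values was not tested. Cd3e, which defines T cells, was at 0.210 FPKM or less in every library.

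Reads were 51 bases long, and near copies or overlapping genes can share them. Of the 51-base windows in annotated transcripts, 10.4% of those of Skint7 and 16.0% of those of Skint8 occur exactly in the other gene, and 3.88% of Skint5 and 4.45% of Skint6 likewise, so the split within those pairs is less certain. As annotated, Skint7 and Skint8 overlap on the plus strand, and whether their shared windows are the same exons was not tested. Skint9 and Skint10 share none with any other gene, and Skint3 shares 0.463% with Skint2.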

How the data were processed

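Low-input cDNA (SMART-Seq v4, Nextera XT, unstranded) was sequenced by the study. The authors aligned reads to NCBI37/mm9 with TopHat2 2.0.10, allowing 2 mismatches and 20 multihits, and made the deposited FPKM values with Cufflinks 2.2.1, per the submitters' processing notes. FPKM are normalized values, so no count test was run, and a listed 0 may be a failed estimate. Depth was inferred from the steps between low values (74.8% to 78.3% of them within 0.1 of a whole read).

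Values were tested as log2(FPKM + 1) with limma 3.58.1 in R 4.3.3 (1 mean per group, variance trend, all 18 libraries) for the 12751 genes reaching 1 FPKM in 3 or more libraries. P-values were adjusted by Benjamini-Hochberg over all genes, and a call required an adjusted p under 0.01 and an absolute log2 change of at least 2. The procedure was tested on simulated data. The members and lists were chosen with earlier results of these data known. Named genes were the 8 members, the other Skint genes, the listed ligands and butyrophilins, markers, flanking genes and the 5 genes most like the summed level. Libraries with the same mouse number come from the same animal. Their deviations from the group means correlated at r = 0.084 to 0.700, and mouse was a random replicate block in an alternative (correlation 0.274). Other alternatives changed the pseudocount, filter, trend, scaling, samples in the fit and threshold, or left out each mouse. Promoters came from RefSeq (GRCm38.p6) and gene positions from GENCODE on NCBIM37.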

Additional observations from a re-analysis of the deposited data

Results flagged for a closer look

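The change of Skint5 from Co to GFP differed between the cell types: it was 1.21 higher on the log2 scale in HF-SC than in b-KC by the interaction test of limma (adjusted p = 0.00296). Leaving out mouse 810, 814, 815 or 828 left it above the threshold of 0.01, with adjusted p between 0.0245 and 0.0308. Groups of 3 libraries are too small for a search for single deviating samples.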

How the results depend on the processing

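Counts of members stand here beside the share of all genes that passed in either direction. With a threshold of adjusted p under 0.05 at any fold, the number of members past it was, against control, 6 in b-KC Tom (45.9%), 4 in HF-SC Tom (44.4%) and 5 in b-KC GFP (41.6%), 3 and 2 for GFP against Tom in HF-SC and b-KC (8.63% and 1.71%), 5 for HF-SC Co against b-KC Co (51.9%), and 4 and 3 for the interactions to GFP and Tom (12.5% and 15.8%). With a pseudocount of 0.1 the number called was 3 in HF-SC Tom (7.68%), 5 in b-KC Tom (5.92%), 1 for HF-SC GFP against Tom (2.79%) and 4 for the control cell types (11.2%); the cause was not tested. The interactions were counted at adjusted p under 0.01 alone, with no fold threshold. For that to Tom the count was 1 without the variance trend (8.06%) and 1 with rescaled libraries (8.49%). With mouse as a replicate block they gave 4 and 2 (10.8% and 13.4%), and the block changed no count of members called at adjusted p under 0.01 and a log2 change of 2 or more by over 1.5 times. Leaving out 1 mouse at a time gave 0 to 4 members for either interaction (0.807% to 15.8% for GFP and at least 1.85% for Tom). It gave 0 to 1 called for GFP against Tom in HF-SC (1.09% to 2.75%) and in b-KC (0% to 0.278%), the 1 being Skint9 without mouse 817. The summed level in b-KC Co was 92.8 FPKM with rescaled libraries, an alternative added after seeing the data, against 95.6.

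Directions that reversed were of changes that were not called. In HF-SC GFP against Co, Skint3 was at -0.30 with a pseudocount of 0.1, and leaving out 1 mouse gave -0.20 to 1.60 for Skint3, -0.23 to 0.071 for Skint5, -0.11 to 0.42 for Skint6, -0.99 to 0.84 for Skint9 and -0.051 to 0.75 for Skint10. It gave -1.65 to 0.11 for Skint3 in b-KC GFP against Co, -0.012 to 0.16 and -0.29 to 0.37 for Skint4 in GFP against Tom of HF-SC and b-KC, and -0.17 to 0.33 and -0.27 to 0.36 for its interactions to GFP and Tom. Depth limits Skint7 and Skint8, which reached at most 1.23 FPKM in HF-SC libraries.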
